A study of Mus musculus with 6 samples.

Results

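Erythroid genes were followed in single-cell RNA-seq libraries of the meninges and the cortical surface of adult mice. The 7 genes were the adult globins Hba-a1, Hba-a2, Hbb-bs and Hbb-bt, the heme enzyme Alas2, the membrane protein Slc4a1 and the bisphosphoglycerate mutase Bpgm. They were the rows with these symbols among the 31053 genes of the count matrices, and every one had UMIs. They are described in hemoglobin-rich barcodes and in the remaining cell classes of each library. A UMI is a tag that counts each captured RNA molecule once, and a barcode is the tag of a droplet.

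The study made 6 libraries from C57BL6 mice that the labels give no treatment for. In all, 4 cortical surface-associated libraries came from tissue taken off the brain surface, and 2 bone-associated libraries came from tissue taken off the inner side of the skull (dura and skull in the labels). Each library pooled adult mice of both sexes, so the library is the replicate and animals cannot be told apart within it. The mice were not perfused, and cells were sorted for a DNA dye and for exclusion of a dead-cell dye before they were loaded. Mature red cells of mice have no nucleus, so such a sort does not select them.

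Red cells carry hemoglobin, a tetramer of alpha and beta globin chains that each hold a heme. Their precursors in the marrow build up globin RNA, lose the nucleus and enter blood as reticulocytes, which go on translating leftover RNA and then degrade it. Alas2 catalyses the first step of heme synthesis in these cells, Slc4a1 (band 3) exchanges chloride for bicarbonate in the membrane and anchors the skeleton, and Bpgm makes the 2,3-bisphosphoglycerate that lowers the oxygen affinity of hemoglobin. In droplet methods, RNA released from broken cells is captured in droplets that hold other cells, and the abundant globin RNAs are a usual part of it.

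Both alpha genes lie on chromosome 11 of GRCm38, Hba-a1 at 32283511 to 32284465 and Hba-a2 at 32296489 to 32297298, both on the plus strand. Both beta genes lie on chromosome 7 on the minus strand, Hbb-bs at 103826534 to 103828096 and Hbb-bt at 103812524 to 103813996. Each of the 4 globins has 3 exons in its GENCODE model. Alas2 (chromosome X, 150547375 to 150570638, plus strand) has 11 exons, Slc4a1 (chromosome 11, 102348824 to 102366203, minus strand) has 20, and Bpgm (chromosome 6, 34476207 to 34505613, plus strand) has 3.

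The coding sequences of Hba-a1 and Hba-a2 differ at 1 of 426 bases, and their 3′ untranslated regions match at all 74 aligned bases. Reads from the 3′ end therefore hardly tell the alpha genes apart, and the split of UMIs between them is uncertain. Hbb-bs and Hbb-bt also differ at 1 of 441 coding bases, but their 3′ untranslated regions are only 72.1% identical over 129 aligned bases. The split between the beta genes therefore rests on more sequence differences than the split between the alpha genes.

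The bases just before the RefSeq start sites are shown so that the promoter motifs of the members can be compared. Of the 7 genes, 6 had a promoter in the RefSeq table for GRCm38.p6. Each line below holds 120 bases that end at the base before the RefSeq start, and capitals mark the motifs named after the sequences. GENCODE starts some of these genes further upstream.
Hba-a1 (chr11:32283552-32283671, plus): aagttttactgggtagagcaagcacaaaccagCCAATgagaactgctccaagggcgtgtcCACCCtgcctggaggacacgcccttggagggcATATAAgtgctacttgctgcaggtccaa
Hbb-bs (chr7:103827929-103828048, minus): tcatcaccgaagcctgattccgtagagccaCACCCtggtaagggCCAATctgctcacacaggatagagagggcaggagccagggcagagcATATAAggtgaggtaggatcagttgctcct
Hbb-bt (chr7:103813924-103814043, minus): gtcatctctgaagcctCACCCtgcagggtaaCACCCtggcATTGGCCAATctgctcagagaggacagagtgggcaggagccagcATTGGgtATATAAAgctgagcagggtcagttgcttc
Alas2 (chrX:150547297-150547416, plus): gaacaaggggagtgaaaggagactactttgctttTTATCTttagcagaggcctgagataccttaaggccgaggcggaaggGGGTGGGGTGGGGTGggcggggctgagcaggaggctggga

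Each motif was searched on both strands. The first was CACCC, the core of the box that the erythroid factor KLF1 recognises. Another was the CCAAT box. The TATA element was searched as TATAAA and also in the form ATATAA, which may overlap it. The GATA element, which the erythroid factor GATA1 recognises, was searched as AGATAA and also in the form TGATAA. All 4 globin windows held the KLF1 box core, the CCAAT box and the TATA element, and none held the GATA element. Alas2 held the GATA element once and the KLF1 box core in 3 places, with neither of the remaining motifs, and Bpgm held the CCAAT box alone. Among 32851 RefSeq promoters of the same length, 31.7% held the KLF1 box core, 21.3% the CCAAT box, 8.74% the TATA element and 7.63% the GATA element. The Hba-a1 and Hba-a2 promoters were identical at all 247 aligned bases, while those of Hbb-bs and Hbb-bt were 73.3% identical.

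Globin RNA was concentrated in cortical surface libraries 3 and 4. Depth ranged from 951 barcodes and 8408685 UMIs in cortical surface 1 to 5602 barcodes and 56169736 UMIs in cortical surface 4, with 1765 and 5207 barcodes in cortical surface 2 and 3 and 1099 and 2936 in bone-associated 1 and 2. In cortical surface 1 to 4, globin transcripts made up 0.287%, 0.0906%, 84.6% and 71.9% of UMIs. In bone-associated 1 and 2 they made up 0.496% and 0.520%. Of all 87475466 globin UMIs, 99.7% lay in cortical surface libraries 3 and 4, which stand apart from every other library. Any pair of libraries shared at most 9 barcode sequences, and 4 sequences were hemoglobin-rich in both cortical surface 3 and 4.

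A barcode was called hemoglobin-rich where the 4 globins held at least 50% of its UMIs. By this limit 4040 barcodes of cortical surface 3 (77.6%, 95% exact binomial interval 76.4 to 78.7%) and 3181 of cortical surface 4 (56.8%, 55.5 to 58.1%) were hemoglobin-rich. The remaining libraries held 19 such barcodes in all: 2 in cortical surface 1 (0.210%), 2 in cortical surface 2 (0.113%), 6 in bone-associated 1 (0.546%) and 9 in bone-associated 2 (0.307%). Cortical surface libraries thus spanned the whole range, and the 4 of them did not separate from the bone-associated ones. The intervals cover counting error only. The lowest share inside the limit was 50.5% and the highest outside it 47.8%, with 27 of 17560 barcodes within 5 points of the limit. Only 39 barcodes in all had shares between 5% and 50%.

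**Figure D1:**
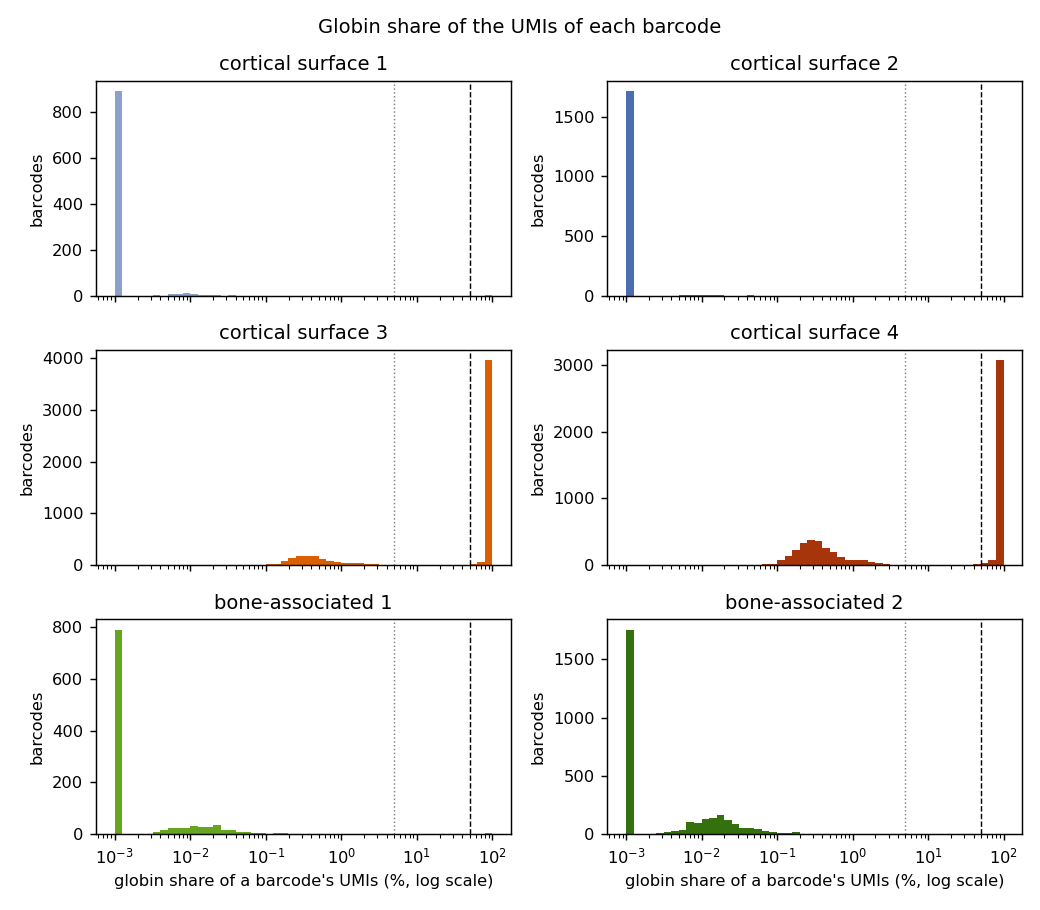
Histograms of the globin share of each barcode's UMIs (x axis, percent on a log scale; y axis, barcodes), a panel per library, with barcodes that have no globin UMI drawn at the left end. The dashed line marks 50% and the dotted line 5%. Only cortical surface 3 and 4 show a tall peak right of the dashed line, with 4040 and 3181 barcodes, and their other barcodes form a low peak under 5% where most barcodes of cortical surface 1 and 2 have no globin UMI.

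The other cells, against which these barcodes are set, had under 50% globin, at least 500 genes, at most 10% mitochondrial UMIs and no doublet call. They numbered 737, 1238, 984 and 2065 in cortical surface 1 to 4, and 953 and 2448 in bone-associated 1 and 2. Their classes were rebuilt by clustering without the 7 genes and are named "X-like" from marker genes.

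The hemoglobin-rich barcodes of cortical surface 3 and 4 mostly held red cell RNAs and little else. They had many UMIs and very few genes: a median of 12167 UMIs and 91.5 genes in cortical surface 3, and 13286 UMIs and 109 genes in cortical surface 4. The median globin share was 96.7% in each. All 9 erythroid markers apart from the members had UMIs, among them the tetraspanin Tspan33 with 664 and 634 UMIs and Hemgn, a nuclear protein of blood precursors, with 326 and 393. The nuclear factors of red cell precursors were near 0: Klf1 had 32 and 44 UMIs and Gata1 15 and 18 UMIs over all these barcodes. Of the Klf1 UMIs, 25 and 41 lay in the 111 and 141 barcodes with 500 genes or more.

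Hbb-bs led the globin pool. In cortical surface 3 and 4 it gave 49.8% and 49.1% of the globin UMIs of hemoglobin-rich barcodes, at medians of 5827 and 6233 UMIs per barcode. Hba-a1 followed with 22.3% and 22.7%, then Hba-a2 with 17.9% and 18.2%, and Hbb-bt with 9.97% and 10.1%. UMIs count molecules by their 3′ ends, so these shares were not corrected for length. How reads that fit both alpha genes were counted was not tested. The alpha shares here and below, and the place of Hbb-bs above them, are therefore those of the counted UMIs. The order was the same in both libraries, and every hemoglobin-rich barcode had UMIs of all 4 genes in both.

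Alas2 was found in nearly all of these barcodes. It had UMIs in 3992 of 4040 barcodes of cortical surface 3 and in 3161 of 3181 of cortical surface 4, at medians of 12 and 14 UMIs. Its level was 10.97 and 11.6 UMIs per 10000 globin UMIs, and it ranked 9 among all genes by UMIs in these barcodes in both libraries. Among the members Alas2 thus came after the globins and Bpgm.

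Bpgm had UMIs in 3664 and 3002 barcodes, at medians of 11 and 13 UMIs and 12.5 and 12.6 per 10000 globin UMIs, and ranked 7. Ahead of it stood only the globins and Gm42418 and AY036118, loci that overlap ribosomal RNA. Slc4a1 was far rarer, with UMIs in 543 of 4040 (13.4%, exact interval 12.4 to 14.5%) and 528 of 3181 barcodes (16.6%, 15.3 to 17.9%). Its level was 0.257 and 0.335 UMIs per 10000 globin UMIs, and it ranked 187 in each library.

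Compared with the other cells of the same 2 libraries, the 3 members that did not choose the barcodes were all higher. Counts were summed per kind and library, the globins were left out of the totals, and edgeR's quasi-likelihood test with the library as a block was fitted to 11798 genes, so globin values themselves are a description only. Of these genes 817 (6.92%) were called higher and 95 (0.805%) lower in hemoglobin-rich barcodes at an adjusted p under 0.05 and a log2 fold change of at least 1.3 either way. All 3 of the members tested were among those called higher. The sums pool all hemoglobin-rich barcodes, including the 111 and 141 of cortical surface 3 and 4 with 500 genes or more. Of these, 92 and 115 had at least 3 markers of another cell class.

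Levels here are CPM, UMI counts scaled to a fixed total of non-globin UMIs. Alas2 stood at 23860 and 21960 CPM in hemoglobin-rich barcodes of cortical surface 3 and 4, against 17.1 and 19.2 CPM in the other cells. The log2 fold change was 12.08 (SE 0.50, edgeR adjusted p = 4.11e-34). Bpgm stood at 27140 and 23890 CPM against 25.6 and 27.4 CPM, a log2 fold change of 11.69 (SE 0.49, edgeR adjusted p = 2.02e-33). The levels of both genes differed between the kinds by 3 orders of magnitude.
Slc4a1 stood at 559 and 634 CPM against 0.512 and 3.19 CPM, a log2 fold change of 9.92 (SE 0.37, edgeR adjusted p = 7.84e-37). In the other cells these values rest on 3 and 41 UMIs. Set against cells under 5% globin alone, the log2 fold changes were 13.34 for Slc4a1, 14.67 for Alas2 and 12.16 for Bpgm, so the size of a change depended on a few globin-bearing cells. With 4 sums and 1 residual degree of freedom the small p-values rest on the spread shared across genes, and both kinds come from the same 2 libraries.

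The size of a fold change depended on scaling. With TMM factors, edgeR's default scaling, the median log2 fold change over all genes was -0.06. With no scaling factor it was -1.83, and the split of calls became 389 higher and 9585 lower. Changes of the gene lists below are relative to these medians, and a direction that turns with the scaling is named.

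Of 16 red cell membrane and skeleton genes, all 16 rose with every scaling tried, with a median log2 fold change of 7.15. Among them were the protein 4.1 gene Epb41 (7.97, 17141 UMIs) and the tetraspanin Tspan33 (5.64, 1298 UMIs). Of 15 tested genes of reticulocyte maturation and redox, all 15 rose, or 14 with no scaling factor, with a median of 7.26. They included the E3 ligase gene Mkrn1 (9.34), the mitophagy receptor Bnip3l (7.26) and the peroxidase Gpx1 (5.88).

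Heme synthesis genes other than Alas2 rose in 7 of 8 cases, with a median of 2.97. With no scaling factor 4 rose and 1 fell. Ferrochelatase, Fech, which inserts iron into protoporphyrin to form heme, led with 11376 UMIs and a log2 fold change of 8.97. Urod (4.37) and Cpox (3.15), which act between Alas2 and Fech, had 665 and 223 UMIs. Of 7 genes of iron handling and erythropoietin response, 6 rose, or 3 with no scaling factor, among them the mitochondrial iron importer Slc25a37 (8.16) and the ferritin chains Ftl1 (5.28) and Fth1 (2.88).

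Erythroid transcription genes rose in 7 of 7 cases, or 5 with no scaling factor, with Hemgn at 8.27, Lmo2 at 3.57, Zfpm1 at 2.83 and Nfe2 at 2.66. Of the 326 and 393 Hemgn UMIs, 177 and 247 lay in the 111 and 141 hemoglobin-rich barcodes with 500 genes or more. Among other globins the theta-like genes Hbq1a (11.44, 2672 UMIs) and Hbq1b (11.32, 1487 UMIs) rose, while embryonic Hbb-y had 22 UMIs (1.35) and was not called. All 5 proliferation genes rose, or 3 with no scaling factor, on few UMIs: Mki67 had UMIs in 0.569% and 1.01% of hemoglobin-rich barcodes. None of 8 tested glycolysis genes was called, and all 8 fell with no scaling factor, as did 9585 of all 11798 genes. Aldoa had a log2 fold change of -0.40 and Ldha of -0.18.

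Of 7 tested genes of hemoglobin and heme uptake, 2 rose: the heme transporter Slc48a1 (7.03) and the biliverdin reductase Blvrb (5.50). With no scaling factor 5 others fell, among them Lrp1 and the iron exporter Slc40a1. Of 88 tested ribosomal protein genes 4 rose, while with no scaling factor 58 fell. Of 13 mitochondrial genes 1 rose, while with no scaling factor 4 fell. Over all 11798 tested genes 6.92% rose, and with no scaling factor 9585 fell. The ribosomal and mitochondrial counts are near or below these shares, so they are no result about the 2 lists.

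A stricter limit of 90% globin moved some of these counts. There 1122 of 11614 genes were called higher and 394 lower, with a median over all genes of -0.71. This limit was fitted with TMM factors alone, so directions that turn with the scaling cannot be named. Of 88 ribosomal protein genes 39 rose and 1 fell, and 8 of 13 mitochondrial genes rose. These are levels among non-globin UMIs. Of all UMIs, the median mitochondrial share at the 50% limit was 0.032% and 0.041% in hemoglobin-rich barcodes of cortical surface 3 and 4. In their other cells it was 3.6% in each. Of 4 tested proliferation genes 3 rose, and Cdk1, the mitotic kinase, turned from a log2 fold change of 2.79 to -0.49 (edgeR adjusted p = 0.932). Hbb-y was called, at 3.98 (edgeR adjusted p = 2.21e-06). Of the iron and erythropoietin genes 4 of 7 rose, and 2 of 8 glycolysis genes fell.

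The 10 called genes with the largest increases included Apol11b, Alas2, Rec114, Gm47533, Bpgm, Hbq1a, Tnk2os, Hbq1b and Acmsd. Of these, Gm47533, Tnk2os and Acmsd had no UMI in the other cells, so against a floor of 3 counts over the other cells of both libraries the increase was at least 194-fold for Gm47533, 139-fold for Tnk2os and 121-fold for Acmsd. The 10 with the largest decreases were Ccl17, Ctsg, Fcor, Il1rn, Adat2, Mapk13, Orm1, Tnip3, Kit and Cebpe, all with 0 or 1 UMI in hemoglobin-rich barcodes. Ccl17, a chemokine, was at least 33.8-fold lower against the same kind of floor.

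The hemoglobin-rich barcodes were not uniform. When each was thinned to 5000 UMIs and ordered by the genes then detected, Bpgm, Slc4a1 and the Hbb-bt share of beta globin were higher in barcodes with more genes, in both libraries alike. Hbb-bt made up 9.80% and 10.4% of Hbb UMIs in barcodes with under 40 genes in cortical surface 3 and 4, and 21.6% and 20.7% in barcodes with 100 to under 150 genes. Bpgm was 3.32 and 3.14 per 10000 globin UMIs with under 40 genes and 24.6 and 23.7 with 100 to under 150. Every step between these bins went up for both measures. The median globin share fell from 97.6% and 97.7% to 94.6% and 94.7% over the same bins. Bpgm and Slc4a1 also count among the genes detected. Higher levels of these 2 genes per globin UMI in gene-rich bins are thus in part built into the binning.

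Slc4a1 was 0.0177 and 0.0311 per 10000 globin UMIs with under 40 genes, on 7 and 4 UMIs, and 1.16 and 1.06 with 100 to under 150 genes, on 368 UMIs in each. Its first step in cortical surface 4 went down, to 0.0287 on 40 UMIs. Of the 3 members other than globins Alas2 changed least, from 9.51 in both to 11.7 and 12.2. The Hba-a1 share of alpha globin went from 55.9% and 55.8% to 54.6% and 54.8%. The bins are a description of cells from 2 libraries and carry no test. Thinning left out 156 and 55 shallower barcodes.

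In the bin of 150 genes or more, Bpgm was lower again, at 13.9 and 14.7 per 10000 globin UMIs, and the Hbb-bt share was 18.2% and 18.8%. Slc4a1 was highest there, at 2.47 and 2.70, and so was Alas2, at 12.4 and 13.3. The median globin share of these barcodes was 75.1% and 73.3%, against 94.6% and 94.7% in the bin before. Among hemoglobin-rich barcodes with 500 genes or more, 92 of 111 and 115 of 141 had at least 3 markers of another cell class. Under 500 genes this held for 2 of 3929 and 5 of 3040. The part of these mixed barcodes in the last bin was not tested.

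**Figure D2:**
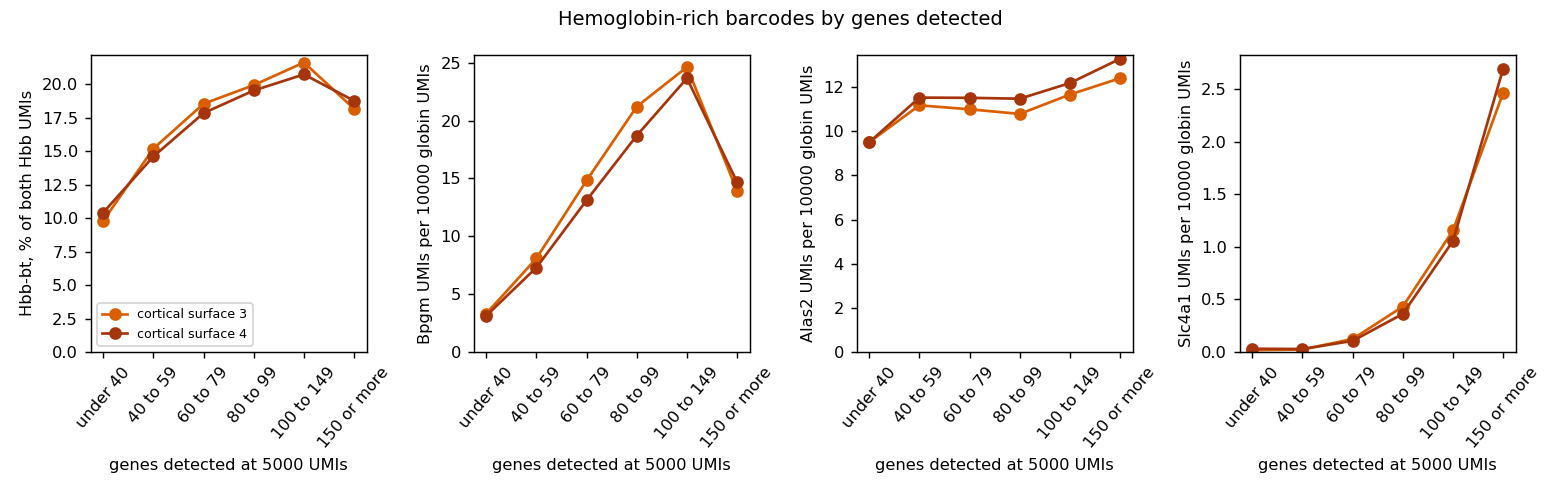
Hemoglobin-rich barcodes of cortical surface 3 and 4 thinned to 5000 UMIs and binned by the genes detected (x axis). From left to right the y axes give the Hbb-bt share of Hbb UMIs in percent, and Bpgm, Alas2 and Slc4a1 UMIs per 10000 globin UMIs, each point being the sum over a bin. Hbb-bt and Bpgm go up at every step until 100 to under 150 genes and turn down in the last bin, Slc4a1 is highest in the last bin, and Alas2 stays between 9.51 and 13.3.

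The same pattern followed the depth of the barcodes before thinning. In cortical surface 3 the Hbb-bt share of Hbb UMIs was 5.97% in barcodes with under 8000 UMIs, 16.8% with 8000 to under 16000 and 20.3% with 16000 or more. In cortical surface 4 it was 6.96%, 16.4% and 20.0%. Shallow and gene-poor barcodes were therefore in part the same ones, and thinning does not separate the 2 measures.

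The Hbb-bt share also varied between barcodes far beyond counting error. Its SD over barcodes was 6.02 and 5.24 percentage points in cortical surface 3 and 4, where counting alone gives 0.484 and 0.460. The 5th to 95th percentiles ran from 3.09% to 23.4% and from 5.00% to 23.2%. For the Hba-a1 share of alpha globin the SD was 2.22 in both, against 0.783 and 0.735 from counting. The measured alpha split therefore varied less than the beta split. Since reads hardly tell the alpha genes apart, this need not hold for the alpha genes themselves.

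The 19 hemoglobin-rich barcodes of the remaining 4 libraries fell into 3 kinds by their genes and markers. A set of 6 had 8 or 9 of the 9 erythroid markers and 792 to 2141 genes. Of these, 2 were of cortical surface 1, 1 of cortical surface 2, 2 of bone-associated 1 and 1 of bone-associated 2. Gata1 and Klf1 are 2 of these markers, so any barcode with 8 of the 9 has UMIs of at least 1 of the 2. Slc4a1 had 18 to 40 UMIs in each of these 6 barcodes, or 27.1 per 10000 globin UMIs. Alas2 was at 16.8 and Bpgm at 8.15 per 10000. Proliferation genes had UMIs in 5 of the 6, up to 46 in a barcode. The erythroid markers chose this set, so their presence in it is no result. In cortical surface 3 and 4, Gata1 or Klf1 had UMIs in 26 of 4040 and 24 of 3181 hemoglobin-rich barcodes. Slc4a1, which is not among the markers, exceeded Bpgm in the set of 6.

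Another 9 (1 of cortical surface 2, 3 of bone-associated 1 and 5 of bone-associated 2) had 33 to 309 genes, at most 2 erythroid markers and no UMI of Gata1, Klf1 or the proliferation genes. Their Slc4a1, Alas2 and Bpgm levels were 0.998, 18.8 and 14.6 per 10000 globin UMIs. The last 4 (1 of bone-associated 1 and 3 of bone-associated 2) had 636 to 3573 genes, 1 or 2 erythroid markers and 2 to 7 of 9 neutrophil markers. Their Slc4a1 level was 0.399, Alas2 25.7 and Bpgm 16.9 per 10000. This sorting into kinds was made after the values were seen.

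Outside the hemoglobin-rich barcodes, every cell of cortical surface 3 and 4 carried globin UMIs. Cells under 5% globin numbered 974 and 2054 there, and none had 0 globin UMIs. Their mean was 19.9 globin UMIs per cell in cortical surface 3 (median 19, 5th to 95th percentile 11 to 31) and 16.8 in cortical surface 4 (median 16, 8 to 28). The median was 0 in each of the other 4 libraries, with means of 0.153 and 0.159 in cortical surface 1 and 2 and 0.407 and 1.14 in bone-associated 1 and 2. The libraries rich in hemoglobin-rich barcodes were thus those with globin in all cells, and the 2 sets of libraries did not overlap in their medians.

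The spread between cells was moderate. The variance was 2.10 and 2.17 times the mean in cortical surface 3 and 4, where pure counting gives 1. In cortical surface 1 and 2 any globin UMI was found in 7.33% and 3.15% of cells, and single cells with 53 of 113 and 144 of 197 globin UMIs held much of the total. In bone-associated 1 and 2 the shares with any globin UMI were 28.1% and 40.5%, mostly 1 or 2 UMIs each. A single neutrophil-like cell held 911 of the 2776 globin UMIs in bone-associated 2.

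Classes of cortical surface 3 and 4 carried alike numbers of globin UMIs. Class means ran from 17.8 (pericyte-like) to 24.5 (monocyte or other macrophage-like) in cortical surface 3, and from 14.8 (mesenchymal-like) to 22.3 (monocyte or other macrophage-like) in cortical surface 4. The source of the globin UMIs in these 10 classes was not tested. T or NK cell-like cells had 19.8 ± 0.436 (SEM over cells) and 15.8 ± 0.293, microglia-like 20.6 ± 0.475 and 18.0 ± 0.315, and endothelial-like cells 17.8 ± 0.667 and 14.9 ± 0.356. The class of highest mean was the same in both libraries, and it was also the class with the most UMIs per cell.

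Across the 10 classes the means of cortical surface 3 and 4 correlated with r = 0.868, and with the median UMIs per cell of the class at r = 0.891 and 0.957 (10 points that share a library and a cell sort, given as a description). Within each library, deeper cells had more globin UMIs. In 3 equal groups of cells by depth the mean was 17.6, 19.5 and 22.7 in cortical surface 3, at median UMIs of 3115, 5228 and 8296. In cortical surface 4 it was 14.3, 16.1 and 19.9. Globin UMIs thus increased less than depth, which differed 2.66-fold between the outer groups of cortical surface 3.
As a share of a cell's UMIs, globin took 0.602% in the shallowest and 0.238% in the deepest group of cortical surface 3, and 0.50% and 0.189% in cortical surface 4. Since globin UMIs increased less than depth, shallower cells had the higher share.

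**Figure D3:**
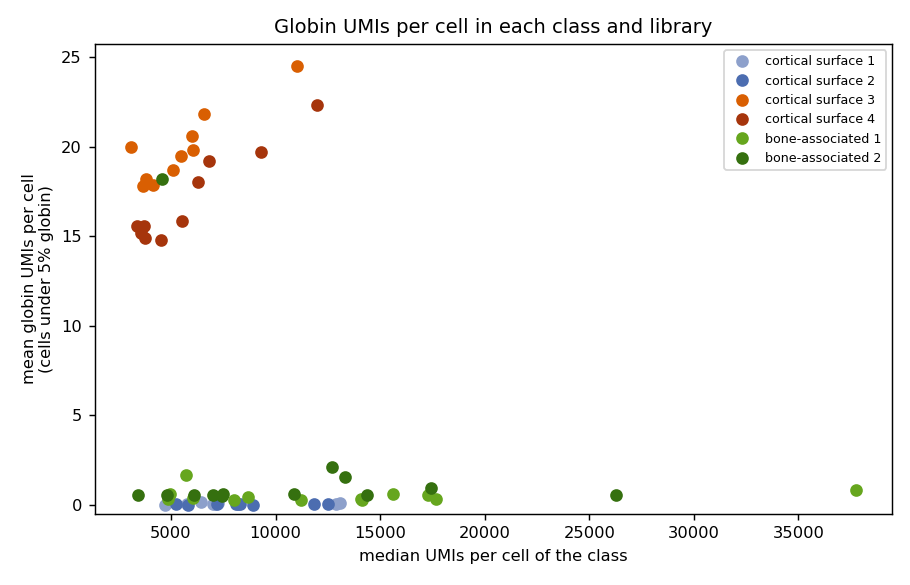
Mean globin UMIs per cell (y axis) against median UMIs per cell (x axis) for each class of at least 10 cells in each library, over cells under 5% globin. Classes of cortical surface 3 and 4 lie between 14.8 and 24.5, and those of the other libraries lie near 0 except neutrophil-like cells of bone-associated 2 at 18.2, where 1 cell of 911 globin UMIs sets the mean.

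Few cells held most of the globin UMIs counted outside the hemoglobin-rich barcodes. Other cells with 5% globin or more numbered 0, 1, 10 and 11 in cortical surface 1 to 4 and 2 and 8 in bone-associated 1 and 2. In cortical surface 3 and 4 they held 77.8% and 74.1% of the globin UMIs of the other cells, and in bone-associated 2 the 8 cells held 96.1%. Their median depth was 16639.5 and 20852 UMIs in cortical surface 3 and 4, against 5227 and 5222 in the cells under 5%. Their cells fell in several classes, such as 3 microglia-like and 3 monocyte or other macrophage-like in cortical surface 4 and 4 border macrophage-like in bone-associated 2. Whether such droplets held a red cell beside another cell, or a cell that had taken one up, was not tested.

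Alas2 was also found outside the hemoglobin-rich barcodes. In cells under 5% globin it had 13 UMIs in cortical surface 3 and 44 in cortical surface 4, or 6.70 (exact Poisson interval 3.57 to 11.5) and 12.8 (9.29 to 17.2) per 10000 globin UMIs. The hemoglobin-rich barcodes of the same libraries had 10.97 and 11.6, each within the interval of its own library. In cortical surface 1 and 2 and bone-associated 1 and 2 Alas2 had 3, 1, 3 and 14 UMIs in these cells, beside 113, 197, 387 and 2776 globin UMIs. Per 10000 globin UMIs this was 265.5, 50.8, 77.5 and 50.4, against 11.2, 11.5, 21.5 and 23.6 in the hemoglobin-rich barcodes. In bone-associated 2 the exact Poisson intervals, 27.6 to 84.6 and 20.2 to 27.5, did not overlap. Those of cortical surface 1, 54.8 to 775.9 and 7.41 to 16.4, did not either. Of the 14 UMIs in bone-associated 2, 6 lay in 1 neutrophil-like cell, and cortical surface 1 rests on 3 UMIs. The intervals treat UMIs as independent, so whether these gaps outlast single cells was not tested. The intervals of cortical surface 2 and bone-associated 1 overlapped between the kinds. Alas2 was found in 22 of 984 other cells of cortical surface 3 (2.24%) and 54 of 2065 of cortical surface 4 (2.62%), in 8 and 11 of the 11 groups of at least 10 cells counted there, unnamed cells included.

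Slc4a1 was near its floor in the same cells. It had 2 UMIs and 1 UMI in cells under 5% globin of cortical surface 3 and 4, or 1.03 (exact Poisson interval 0.125 to 3.72) and 0.291 (0.00736 to 1.62) per 10000 globin UMIs, intervals that contain the 0.257 and 0.335 of the hemoglobin-rich barcodes. In cortical surface 1 it had 15 UMIs, all in 2 of 6 monocyte or other macrophage-like cells. In cortical surface 4, 40 of the 41 UMIs in all other cells lay in 3 monocyte or other macrophage-like cells with 5% globin or more. In the cortical surface libraries this class pooled a cluster of 70 cells with a cluster of 36. The latter had 4 of 7 markers and was led by Mki67, Pclaf and Top2a. Which cluster held these Slc4a1 UMIs was not tested.

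Bpgm did not keep its ratio to the globins outside the hemoglobin-rich barcodes. In cells under 5% globin its ratio was 47.9 and 81.4 UMIs per 10000 globin UMIs in cortical surface 3 and 4, against 12.5 and 12.6 in hemoglobin-rich barcodes. In cortical surface 1 and 2, where globin was nearly missing, Bpgm still had 126 and 377 UMIs in these cells, and in bone-associated 1 and 2 it had 163 and 380. As CPM over all UMIs of the cells, the scale of every class level below, its level over cells under 5% globin was 16.9, 29.9, 16.1 and 22.0 CPM in cortical surface 1 to 4 and 15.2 and 16.7 CPM in the bone-associated libraries. Bpgm was therefore present in every library at levels that overlapped between libraries with many and with few hemoglobin-rich barcodes. Some Bpgm UMIs of cortical surface 3 and 4 may have come along with the globin UMIs. Their number was not estimated, and the class levels below were not corrected for it.

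Bpgm differed between cell classes. Over cells under 5% globin the highest levels of the cortical surface libraries were 66.3 CPM in neuron-like cells (1 library), 58.8 ± 11.4 (SD, n = 4 libraries) in endothelial-like cells and 58.6 ± 12.8 (n = 2) in choroid plexus-like cells. Endothelial-like levels were 62.8, 72.8, 47.1 and 52.6 CPM in cortical surface 1 to 4. Mesenchymal-like cells followed at 30.0 ± 22.3 (n = 4), then monocyte or other macrophage-like (14.5 ± 3.64, n = 2), pericyte-like (13.8 ± 7.83, n = 4), T or NK cell-like (13.6 ± 6.69, n = 4), B cell-like (13.1 ± 9.78, n = 4), microglia-like (12.7 ± 3.68, n = 4) and border macrophage-like cells (9.06 ± 4.55, n = 4). VSMC-like cells (4.33 ± 0.926, n = 2) and neutrophil-like cells (2.92 ± 4.13, n = 2) stood last.
Neighbours in this order mostly differed by less than the larger SD of the pair. The exceptions were choroid plexus-like above mesenchymal-like and border macrophage-like above VSMC-like cells.

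In the bone-associated libraries the order began with Schwann-like (42.5 ± 13.1, n = 2) and mesenchymal-like cells (40.1 ± 19.6), then choroid plexus-like (22.0 ± 5.01), T or NK cell-like (18.2 ± 4.86), endothelial-like (15.9 ± 2.83) and B cell-like cells (13.4 ± 3.06). VSMC-like (10.4 ± 2.38), pericyte-like (9.37 ± 5.63), mast cell-like (8.40 ± 11.9) and border macrophage-like cells (7.04 ± 3.14) came next. Monocyte or other macrophage-like (1.98 ± 2.80), neutrophil-like (1.31 ± 1.86) and dendritic-like cells (1.14 ± 0.386) were lowest. Only border macrophage-like and monocyte or other macrophage-like cells differed beyond the larger SD among neighbours. The choroid plexus-like class here was a cluster of 67 cells with 4 of 6 markers and a median of 28506 UMIs. Its leading genes included Ttr and also the proliferation gene Birc5, so its identity is uncertain. The study reported choroid plexus cells among the types found in its cortical surface preparation.

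**Figure D4:**
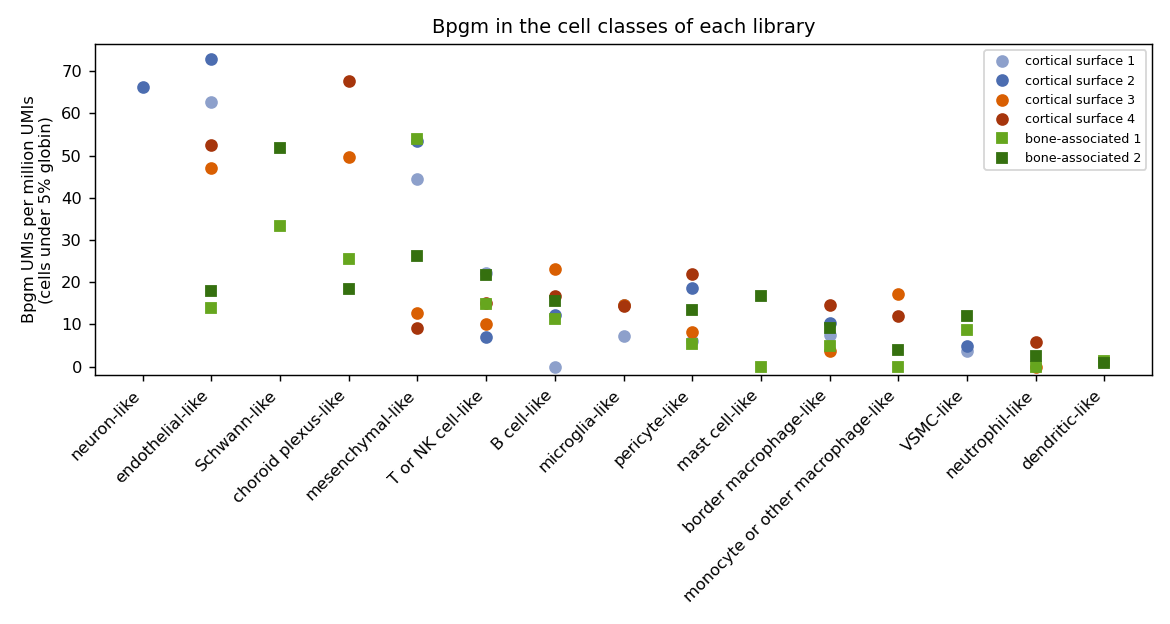
Bpgm level (y axis, CPM, cells under 5% globin) in each cell class (x axis), a point per library with circles for cortical surface and squares for bone-associated libraries. Endothelial-like cells lie between 47.1 and 72.8 in the 4 cortical surface libraries and at 13.9 and 17.9 in the bone-associated ones.

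A test across 62 sums of 14 classes in 6 libraries, with the library as a block, called differences between classes for 12534 of 13086 genes (95.8%), so a call there is the rule. Among the members, Bpgm (edgeR adjusted p = 0.00414), Alas2 (0.00909) and the 4 globins (6.24e-05 to 0.00115) were called, and Slc4a1 had too few UMIs to be tested. With cells under 5% globin Bpgm was called at an edgeR adjusted p of 2.15e-08 and the globins at 2.08e-08 to 9.59e-06, while Alas2 no longer had enough UMIs.

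Cortical surface and bone-associated libraries were then compared within 4 classes, with edgeR's quasi-likelihood test across libraries. These comparisons carry the contrast between cortical surface 3 and 4 and all other libraries, so the values are given with and without those 2 libraries. Alas2 and Slc4a1 were too rare to be tested in any of the 4 classes. A gene entered if over 10% of cells of either preparation had it. In endothelial-like, B cell-like and T or NK cell-like cells Hba-a1 and Hba-a2 entered through the cortical surface cells alone. In endothelial-like cells Hbb-bt did so too, since it no longer entered without cortical surface 3 and 4. For B cell-like and T or NK cell-like cells the shares of Hbb-bt are not given here. For Hba-a1 the shares were 48.3%, 86.3% and 85.6% there, against 8.5%, 9.5% and 7.2% in bone-associated cells. Bpgm in border macrophage-like cells entered through the bone-associated cells alone (13.3% against 6.99%). Calls of these genes rest in part on that filter and are given as a description.

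Endothelial-like cells had a higher Bpgm CPM level in the cortical surface libraries. Its levels over all endothelial-like cells were 62.8, 72.5, 47.1 and 52.6 CPM in cortical surface 1 to 4 and 13.9 and 17.9 CPM in bone-associated 1 and 2. The preparations were clustered separately, and different clusters made up the class. In bone-associated libraries it held clusters of 228, 124 and 93 cells, led by Btnl9 and Gpihbp1, by Slc38a5 and Slco1a4, and by Selp and Sele. In cortical surface libraries it held clusters of 232, 226 and 78 cells, led by Slc38a5 and Vwf, by Mfsd2a and Car5a, and by Cytl1 and Gkn3. A bone-associated cluster of 152 cells, also led by Gkn3 and Cytl1, stayed unnamed and was left out. The part of this makeup in the Bpgm difference was not tested. The log2 fold change was 1.85 (SE 0.27, edgeR adjusted p = 0.000113), where 159 of 7740 genes (2.05%) were called higher. Without cortical surface 3 and 4 it was 1.96 (SE 0.29, edgeR adjusted p = 0.000162). The difference was thus as large among libraries with almost no hemoglobin-rich barcodes. In cells thinned to 1500 UMIs, 2.99%, 4.89%, 1.39% and 6.49% of cortical surface endothelial-like cells and 0.833% and 1.88% of bone-associated ones had a Bpgm UMI. Cortical surface 3 thus lay below bone-associated 2 at this depth. Without thinning, Bpgm had 214 UMIs in 76 of 536 cortical surface cells (14.2%) and 64 UMIs in 46 of 445 bone-associated ones (10.3%). The CPM difference thus rests in part on cells with several Bpgm UMIs.

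All 4 globins were also called higher in endothelial-like cells of the cortical surface libraries (edgeR adjusted p = 0.00322 to 0.0237). The log2 fold changes were 5.12 for Hba-a1, 5.06 for Hba-a2, 5.51 for Hbb-bs and 4.32 for Hbb-bt. Of these, Hba-a1, Hba-a2 and Hbb-bt entered through the cortical surface cells alone, so their calls are a description. The globin levels did not separate the preparations. Hbb-bs stood at 4.60, 373, 2332 and 1961 CPM in cortical surface 1 to 4 and at 13.9 and 34.6 CPM in bone-associated 1 and 2. In cortical surface 2 a single cell held 1282 of the 1288 globin UMIs. Without cortical surface 3 and 4 the Hbb-bs log2 fold change was 2.87 (edgeR adjusted p = 0.0261) and the 3 other globins had too few UMIs to be tested.

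In B cell-like cells, where 57 of 4836 genes (1.18%) were called higher, all 4 globins were called, at log2 fold changes of 4.64 to 5.82. Since Hba-a1 and Hba-a2 entered through the cortical surface cells alone, their calls are a description. Cortical surface 1 and 2 had no globin UMI in 18 and 14 B cell-like cells. Cortical surface 3 and 4 had Hbb-bs at 4962 and 2050 CPM, and bone-associated 1 and 2 at 25.8 and 51.2 CPM. Without cortical surface 3 and 4 the Hbb-bs fold change turned to -7.40 (edgeR adjusted p = 0.135), a fitted value against libraries at 0. The higher call rested on those 2 libraries.

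T or NK cell-like cells gave a like picture. Hba-a1 was called higher (log2 fold change 6.63, SE 2.11, edgeR adjusted p = 0.0485). Since Hba-a1 and Hba-a2 entered through the cortical surface cells alone, their values are a description. In this class 101 of 5794 genes (1.74%) were called higher and 353 lower, or 153 and 296 with upper-quartile scaling. Hba-a2, Hbb-bs and Hbb-bt had log2 fold changes of 6.05, 6.34 and 5.48 at edgeR adjusted p of 0.0590, 0.0761 and 0.0540. Their cells held 1, 1, 19429 and 4862 globin UMIs in cortical surface 1 to 4 and 56 and 243 in bone-associated 1 and 2. Without cortical surface 3 and 4, Hbb-bs turned to -4.42 (edgeR adjusted p = 0.00848). Bpgm differed by -0.15 (SE 0.35, edgeR adjusted p = 0.817).

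Border macrophage-like cells went the other way for globins and Bpgm. Hbb-bs stood at 2.64, 1.26, 2451 and 2037 CPM in cortical surface 1 to 4, and at 19.3 and 13930 CPM in bone-associated 1 and 2. Hba-a1, Hba-a2, Hbb-bs and Hbb-bt had log2 fold changes of -2.77, -2.88, -2.92 and -3.51, and none was called (edgeR adjusted p = 0.284 to 0.425). Bpgm was called lower in the cortical surface libraries (-2.50, SE 0.52, edgeR adjusted p = 0.0128). Here 383 of 7673 genes (4.99%) were called lower and 114 higher, or 325 and 168 with upper-quartile scaling. Since Bpgm entered through the bone-associated cells alone, its call is a description. Its levels were 7.47, 10.5, 3.79 and 14.5 CPM against 4.82 and 60.6 CPM, so 1 library, bone-associated 2, carried the difference.
In that library 4 of 98 border macrophage-like cells had 5% globin or more. In cells under 5% globin the Bpgm level of bone-associated 2 was 9.26 CPM, the log2 fold change -0.04 (SE 0.56, edgeR adjusted p = 0.982), and the globin fold changes turned to 3.50 to 4.04 without a call. The Bpgm call thus rested on those 4 cells.

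How the preparations differed was compared between endothelial-like and border macrophage-like cells, with the library as a block, a test added after the data were seen. These 2 classes already had Bpgm called, and globin fold changes, in opposite directions. A difference between them for these genes was therefore largely fixed by the choice of the pair. It was called for 499 of 9058 genes (5.51%), among them Bpgm (4.22, SE 0.52, edgeR adjusted p = 0.000576) and Hbb-bt (7.85, SE 1.56, edgeR adjusted p = 0.0113). In cells under 5% globin these became 1.78 (SE 0.58, edgeR adjusted p = 0.0936) and 0.80 (SE 0.55, edgeR adjusted p = 0.475). Neither difference between the classes was called in those cells.

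Over all libraries no ratio among the globins was called different between hemoglobin-rich barcodes and other cells, and the errors were wide. Hbb-bt made up 20.9%, 17.4%, 16.7% and 17.0% of Hbb UMIs in the hemoglobin-rich barcodes of cortical surface 1 to 4, and 19.4% and 20.4% in bone-associated 1 and 2. In the other cells under 5% globin it made up 23.1%, 18.5%, 14.6%, 14.6%, 20.9% and 19.9% in the same order. In both kinds cortical surface 3 and 4, which rest on the most UMIs, had the lowest shares. Within each of these libraries the exact intervals did not overlap between the kinds. They ran from 16.67 to 16.69% and 16.99 to 17.02% in hemoglobin-rich barcodes. In the other cells under 5% globin they ran from 13.97 to 15.23% and 14.14 to 15.08%. In each remaining library the intervals of the kinds overlapped. All cover counting error only.

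Over the 6 libraries and all other cells, the Hbb-bt share was 18.6% in hemoglobin-rich barcodes and 17.1% in other cells, a difference of 1.55 ± 7.57 percentage points (SD, n = 6, exact sign-flip permutation p = 0.688, adjusted 0.688). The Hba-a1 share of alpha globin was 56.9% against 52.7% (4.13 ± 6.79, exact permutation p = 0.344, adjusted 0.516). The alpha share of all globin UMIs was 39.9% against 48.9% (-8.93 ± 12, exact permutation p = 0.219, adjusted 0.516). In cortical surface 3 and 4, which hold most of the UMIs, it went the other way, by 2.31 and 2.45 points, or 3.15 and 3.38 against cells under 5% globin. The differences were -12.1 and -22.2 points in cortical surface 1 and 2 and -23.4 and -0.639 in bone-associated 1 and 2. These two-sided tests can reach 0.0313 at the least, and 3 were made. In the 4 libraries other than cortical surface 3 and 4 the shares of other cells rest on few UMIs or few cells.

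Between preparations, 6 exact two-sided permutation tests compared the ratios over 4 against 2 libraries. The smallest p this design allows is 0.0667, so no ratio could have been called. The largest difference relative to its spread was the Hba-a1 share in other cells, at 55.1 ± 1.01% (SD, n = 4) against 48.0 ± 6.90% (n = 2, exact permutation p = 0.0667, adjusted 0.4). All 4 cortical surface libraries, at 53.6% to 55.7%, lay above both bone-associated ones, at 43.1% and 52.9%. In cells under 5% globin the means were 50.9% and 46.7% (exact permutation p = 0.667, adjusted 0.867). In hemoglobin-rich barcodes the Hbb-bt share was 18.0 ± 1.99% against 19.9 ± 0.671% (exact permutation p = 0.4, adjusted 0.8).

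**Figure D5:**
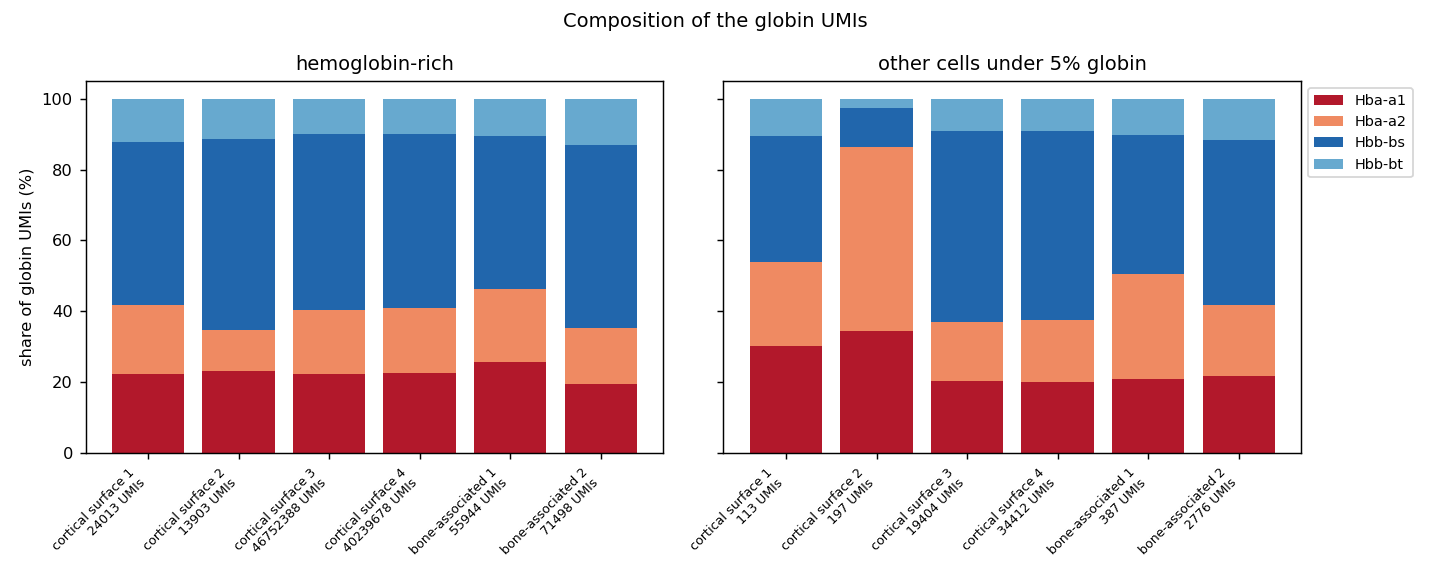
Share of each globin among globin UMIs (y axis, percent, stacked) per library, in hemoglobin-rich barcodes (left) and in other cells under 5% globin (right), with the globin UMIs behind each bar under its name. Bars of cortical surface 3 and 4, with the most UMIs, have Hbb-bs at 49.8% and 49.1% on the left, and the right bar of cortical surface 2 rests on 197 UMIs.

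Genes with the profile most like the summed globins were sought across 71 sums of a library and class of at least 10 cells, hemoglobin-rich barcodes included, among 15123 genes. The highest Pearson r of log2(CPM + 1) was that of Alas2 (0.871), followed by Gm42418 (0.80), a locus that overlaps ribosomal RNA, and the Y-chromosome genes Ddx3y (0.723), Eif2s3y (0.721) and Uty (0.668). Slc4a1 (0.576) and Bpgm (0.552) ranked 18 and 26. The sums of a library share its depth, its free RNA and its mix of male and female mice, so these are descriptions. Whether the share of male cells differed between libraries was not tested.
For Alas2 itself the closest were the 4 globins, Hbb-bt (0.896), Hba-a1 (0.884), Hba-a2 (0.883) and Hbb-bs (0.874), and then Apol11b (0.825). Among genes close to Slc4a1 was Trim10 (0.958), a red cell gene, and Bpgm was closest to Bnip3l (0.789), 2 profiles added after the data were seen.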

How the data were processed

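The authors deposited filtered count matrices of whole UMI counts per gene and barcode, made with Cell Ranger (6.1.2 in the matrix headers, 3 in the submitters' processing notes) on mm10; no normalization was applied. The labels' protocol and the study's methods name different dissociation enzymes. From these counts, hemoglobin-rich barcodes (at least 50% globin UMIs) and other cells (at least 500 genes, at most 10% mitochondrial UMIs) were separated, and 117 called doublets were removed from the latter. Hemoglobin-rich barcodes were not scored for doublets. Each preparation was clustered (30 principal components, 2000 variable genes, Leiden resolution 1.5) without the members and other globins. Clusters were named from marker lists.

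Counts summed per library and class of at least 10 cells were tested with edgeR (quasi-likelihood, TMM, Benjamini-Hochberg over all genes tested). A call needed an adjusted p under 0.05. Comparisons between 2 groups also needed a log2 fold change of at least 1.3 either way. Low counts were filtered with edgeR's filterByExpr, or, between preparations, by requiring that over 10% of cells had a UMI in either preparation. Ratios were compared with exact permutation tests over libraries. By the study's methods each library pooled tissue from several mice, so p-values measure the spread between pools. In data simulated for the 6 fits, between 97% and 99.5% of 200 genes changed by known folds were recovered, with at most 6 false calls. The simulated sums of a fit shared a mean profile and a common dispersion, had no library or class effects, and only more abundant genes were changed. These rates therefore do not carry over to rare genes, to kinds of unlike composition or to sums that single cells set.

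The members, the gene lists, and the choice to describe them in hemoglobin-rich barcodes were made with earlier results of these data known. Genes are named if they are members, if they are among the 4 of a list with the most UMIs in hemoglobin-rich barcodes, if they are among the 10 largest called changes in each direction with at least 50 UMIs, or if they are among the 5 with the likest profile; a few genes that this rule names are not reported here. Gene positions and exons are from GENCODE M21, which matched 30934 of 31053 genes by identifier, and promoter sequences are from RefSeq on GRCm38.p6. Intervals are exact at 95%, cover counting error only, and use a floor of 3 counts. Depth per library was 8408685 to 56169736 UMIs. Alternatives were DESeq2, upper-quartile scaling, no low-count filter, other limits for globin share, genes and mitochondrial UMIs, no doublet removal, a replicate block, and libraries left out. Limits of 5% globin and no scaling factor were added after the data were seen. Tests used edgeR 4.0.16 and DESeq2 1.42.0 in R 4.3.3, scipy 1.17.1 and, for clustering, leidenalg 0.10.2 with igraph 0.11.9 and scikit-learn 1.9.0 under Python 3.11.15 (pandas 2.3.3, numpy 2.4.6).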

Additional observations from a re-analysis of the deposited data

Results flagged for a closer look

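Among the values of 4 to 10 samples, 17 groups were tested for a library far from the others, of which chance gives about 1 in 20, and 2 had such a library. In the other cells of the cortical surface libraries, Hba-a1 made up 53.62% of alpha globin UMIs in cortical surface 2, against 55.42 to 55.74% in the 3 others, and 1 cell held 1282 of the 1479 globin UMIs behind it. In hemoglobin-rich barcodes of the cortical surface libraries, Hbb-bt made up 20.95% of Hbb UMIs in cortical surface 1, against 16.68 to 17.36% in the 3 others, and that value comes from 2 barcodes.

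The difference between preparations was not the same in endothelial-like and border macrophage-like cells for Hbb-bt (7.85 on the log2 scale, edgeR adjusted p = 0.0113) and for Bpgm (4.22, edgeR adjusted p = 0.000576). Both values rest in part on 4 border macrophage-like cells of bone-associated 2 with 5% globin or more. Without these and the other cells above that limit, the values were 0.80 and 1.78 and were not called. The 2 classes were paired after their values had been seen, so a difference for these genes was in part built in.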

How the results depend on the processing

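Most results kept their direction and their side of the threshold. Alas2, Slc4a1 and Bpgm were called higher in hemoglobin-rich barcodes under every alternative run, and Bpgm was called higher in cortical surface endothelial-like cells under each of them. Leaving out 1 library from the comparison of hemoglobin-rich barcodes with other cells leaves a single pair with no residual degrees of freedom, so it was not run. Called genes there went from 912 to 1516 with a 90% limit and to 9974 with no scaling factor.

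Between preparations, called genes went from 454, 512, 178 and 497 in T or NK cell-like, endothelial-like, B cell-like and border macrophage-like cells to 775, 900, 317 and 855 with no filter. Without cortical surface 3 and 4 they were 193 in T or NK cell-like and 33 in B cell-like cells, and DESeq2 called 80 in the latter. With 1 library left out they ranged from 361 to 531, 385 to 549, 67 to 273 and 246 to 506. In B cell-like cells 273 were called without cortical surface 2, 88 without cortical surface 3 and 67 without cortical surface 4, and in border macrophage-like cells 246 without bone-associated 2.

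Same-numbered libraries shared a number in the labels, with nothing that says it marks a shared day or batch, and their deviations correlated at 0.15 to 0.211 in the 4 classes over only 2 pairs. The replicate block uses only replicates 1 and 2 and so drops cortical surface 3 and 4. With this block 312, 479, 34 and 552 genes were called. Globin fold changes then turned to -2.47, -6.96, -4.31 and -6.33 for Hba-a1, Hba-a2, Hbb-bs and Hbb-bt in T or NK cell-like cells and to -6.54, -5.55, -7.36 and -5.64 in B cell-like cells, and Hbb-bt to -0.34 in endothelial-like cells. Dropping cortical surface 3 and 4 alone gave -4.42 and -7.40 for Hbb-bs in T or NK cell-like and B cell-like cells.

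In border macrophage-like cells the 4 globins ranged from -3.75 to 5.50, -3.85 to 4.65, -3.91 to 5.82 and -4.48 to 10.81 with 1 library left out, turning without bone-associated 2, and they were 3.72, 3.76, 4.04 and 3.50 in cells under 5% globin. Bpgm in T or NK cell-like cells ranged from -0.37 to 0.0201, the latter without cortical surface 4. The mean share of hemoglobin-rich barcodes in bone-associated libraries, 0.426%, was 0.619% and 0.142% with limits of 25% and 90%.

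The Hbb-bt share of hemoglobin-rich barcodes minus that of other cells turned to -1.18 and -1.58 points with limits of 75% and 90%, and ranged from -1.02 to 3.46 with 1 library left out. Between preparations, the Hba-a1 share in hemoglobin-rich barcodes ranged from -0.41 to 4.12 points, the alpha share from -6.92 to 4.02 in hemoglobin-rich barcodes (0.104 without cortical surface 2) and from -22.9 to 10.8 in other cells, and the latter was 7.55 in cells under 5% globin. None of these was called, and between preparations the design allowed no call. The cause of these changes was not tested, beyond what leaving libraries out shows. The small number of hemoglobin-rich barcodes outside cortical surface 3 and 4 limits every ratio there.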

Other observations

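Rarer erythroid genes were found more often in the hemoglobin-rich barcodes with more genes. Among hemoglobin-rich barcodes with 500 genes or more, 16 of 111 in cortical surface 3 and 25 of 141 in cortical surface 4 had at least 3 erythroid markers, and Gata1 or Klf1 had UMIs in 10 and 16 of them. Under 500 genes these numbers were 72 of 3929 and 68 of 3040 with 3 markers, and 16 and 8 with Gata1 or Klf1. Ermap, a red cell surface protein of the butyrophilin family, had 77 and 94 UMIs in the gene-rich barcodes and 6 and 11 in the far more numerous others. Rhag, a part of the Rh complex, had 48 and 45 UMIs against 8 and 13. Bpgm was about as high in both, at 13.2 and 13.7 per 10000 globin UMIs in gene-rich barcodes and 12.5 and 12.6 in the others. Barcodes were split here by the genes detected without thinning, and the erythroid genes count among these. More of the rare genes in gene-rich barcodes is thus in part built into the split. The gene-rich barcodes of cortical surface 3 and 4 had median globin shares of 74.05% and 71.01%. Of them, 92 and 115 had at least 3 markers of another cell class. All values are sums over barcodes of 2 libraries and have no test.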
